A study of Mus musculus with 4 samples.

Results

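P1 odontoblasts were taken as the barcodes of the P1 molar libraries that held at least 5 UMIs of Dspp, at least 20 UMIs of Col1a1 and Col1a2 together and no UMI of the epithelial genes Epcam and Cdh1. UMIs are the random barcodes that let each captured transcript be counted once. Of the 56940 barcodes in the 4 libraries of the study, 168 passed, 54 in the P1 maxillary and 114 in the P1 mandibular molar. These were 0.328% of the 16486 maxillary and 1.21% of the 9417 mandibular barcodes that had at least 1000 UMIs, under 10% mitochondrial UMIs and, in the mandibular library, a barcode absent from the maxillary one. Dspp and type I collagen chose the cells, so their levels are a description of the choice. They are included in counts of higher genes below, where their own calls support nothing, and Dspp also serves to rank the cells. After removal of the top-scoring doublet candidates 34 and 81 of these cells remained. The removal took 20 of the 54 and 33 of the 114. Over all barcodes it took 2800 of 18707 maxillary and 3011 of 19401 mandibular ones, a smaller share in each library. The reason for the larger share among odontoblasts was not tested.

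Single-cell RNA sequencing was done on wild-type C57BL/6J molars, labelled WTB6, with 1 library for each jaw at P1 and 1 for each jaw in embryos given as E15 in the labels and E15.5 in the methods. The P1 pups are given as P0/P1 in the methods, and 6 tooth organs were pooled in each library. No treatment is given for any library. With 1 library per stage and jaw there was no replicate, no test was made and no p-value is given. Intervals cover counting error only.

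Odontoblasts are the columnar cells that line the dental papilla, send a process into the matrix and secrete dentin, a tissue of type I collagen that mineralizes outside the cell. They leave the cell cycle and differentiate from papilla mesenchyme facing the ameloblasts, the epithelial cells that secrete enamel. Dspp is cut into proteins of dentin, Dmp1 and Phex act in phosphate handling and mineralization, and Dkk1 is a secreted inhibitor of Wnt signaling that blocks the Lrp5 and Lrp6 co-receptors.

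The P1 libraries share barcodes. They had 7131 barcodes in common, 38.1% of the maxillary and 36.8% of the mandibular ones, whereas the other 5 pairs of libraries shared 28 to 70. The shared barcodes held more UMIs in the maxillary library by a median of 2.07 on the log2 scale, with a 95th percentile of 2.18, and 38 held more in the mandibular one. Of the barcodes with at least 10000 UMIs, 95.9% of the maxillary ones were also in the mandibular library and 1.82% of the mandibular ones in the maxillary library. Of the 54 maxillary odontoblasts 53 have such a copy, with a median of 5644 UMIs against 24325 in the maxillary library. Among genes that the rule did not use, the copies had similar levels. Dkk1 was at 550 CPM (UMIs of a gene per 1000000 UMIs of the cells) against 548 CPM in the maxillary library. Dmp1 was somewhat lower in the copies, at 1363 against 1516 CPM, and Wnt10a stood at 174 against 142 CPM. The jaw of origin of the shared cells and the library that holds them more deeply cannot be told apart. Shared barcodes were therefore left out of the mandibular library only, and the 114 mandibular odontoblasts contain none of them, so each mandibular value below also stands without the shared cells.

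No E15 barcode passed the rule, 0 of 9679 maxillary and 0 of 6582 mandibular barcodes of sufficient quality, which allows shares of up to 0.031% and 0.0456%. At P1 the libraries held 128812956 and 139873101 UMIs in all, and the odontoblasts were among their deep barcodes. The 54 maxillary cells held a median of 24162.5 UMIs (7758 to 46339) and 5175 genes, and the 114 mandibular cells a median of 19380.5 UMIs (1838 to 106174) and 4605.5 genes. Their summed counts were 1342760 and 2365495 UMIs. Odontoblasts held 1.07% of the UMIs of all kept maxillary barcodes and 2.11% of the mandibular ones, but 68.9% and 71.7% of those of Dmp1, 54.8% and 67.7% of Phex, and 47.3% and 63.7% of Bglap. They held only 26.0% and 27.5% of the Dspp. Ameloblast-selected cells (defined below) also held Dspp, at 1454 and 1250 CPM.

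Most barcodes with Dspp were removed by the other conditions of the rule. At least 5 Dspp UMIs were found in 302 maxillary and 689 mandibular barcodes, of which 76 and 175 also reached 20 collagen UMIs. The condition on Epcam and Cdh1 then removed 22 and 61 barcodes, 19 and 51 of them with 3 or more UMIs of these genes. Those last cells had Amelx at 9902 and 15648 CPM and Dmp1 at 1.85 and 57.4 CPM, the profile of enamel-forming epithelium. Just inside the Dspp limit, the 8 maxillary and 10 mandibular cells with 5 or 6 UMIs had Dmp1 at 1126 and 1725 CPM and Phex at 621 and 1054 CPM. Just outside it, the 12 and 16 cells with 3 or 4 UMIs had Dmp1 at 540 and 449 CPM and Phex at 632 and 358 CPM. Both genes were also present in cells outside the limit.

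3 promoters are shown because Bglap, Dmp1 and Phex are among the genes that set odontoblasts farthest from the papilla. The stretches are the 250 bases upstream of RefSeq transcript starts in GRCm38.p6 (mm10), read 5′ to 3′ on the strand of the gene. Capitals mark TGTGGT, the core letters bound by RUNX factors, TAATTG, a homeodomain core, both searched on either strand, and TATAAA on the strand of the gene. ACCACA and CAATTA are the first and second of these read on the other strand. No motif overlaps another in the stretches shown. The first promoter is that of Bglap, the gene for osteocalcin, at chr3:88384467-88384716 on the minus strand.
Bglap: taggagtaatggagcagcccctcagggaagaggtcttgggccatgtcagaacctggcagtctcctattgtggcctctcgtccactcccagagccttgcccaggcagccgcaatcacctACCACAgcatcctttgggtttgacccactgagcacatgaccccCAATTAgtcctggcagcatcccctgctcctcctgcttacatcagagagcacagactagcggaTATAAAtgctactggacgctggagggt
The second is that of Dmp1, at chr5:104202367-104202616 on the plus strand.
Dmp1: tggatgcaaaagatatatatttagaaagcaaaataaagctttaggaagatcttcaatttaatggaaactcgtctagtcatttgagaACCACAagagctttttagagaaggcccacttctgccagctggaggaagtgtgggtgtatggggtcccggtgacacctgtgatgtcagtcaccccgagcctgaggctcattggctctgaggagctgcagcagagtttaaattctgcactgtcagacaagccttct
The third is that of Phex, at chrX:157415287-157415536 on the minus strand.
Phex: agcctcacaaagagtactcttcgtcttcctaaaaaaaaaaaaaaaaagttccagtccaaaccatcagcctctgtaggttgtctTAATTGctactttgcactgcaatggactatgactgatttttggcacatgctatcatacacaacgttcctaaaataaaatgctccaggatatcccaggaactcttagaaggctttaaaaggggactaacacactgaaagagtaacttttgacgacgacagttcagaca
Bglap held all 3 motifs, Dmp1 only TGTGGT and Phex only TAATTG. A second Dmp1 start, with the stretch chr5:104197325-104197574, held none. Of all 32851 promoters of this length, 14.0% held TGTGGT, 7.17% TAATTG and 7.59% TATAAA. Of the 12 genes highest in odontoblasts over papilla-selected cells (below), 10 matched the table with 16 promoters, of which 3 (18.8%), 4 (25%) and 1 (6.25%) held them. A match is a description of letters and not a binding site.

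The marker genes given for the class were checked first. Dmp1 stood at 1522 CPM (95% Poisson interval 1457 to 1590) in maxillary and 1227 CPM (1183 to 1273) in mandibular odontoblasts, and Dkk1 at 548 CPM (509 to 589) and 508 CPM (479 to 537). Both were thus high in both libraries, with Dkk1 detected in 98.1% and 95.6% of the cells and Dmp1 in 98.1% and 87.7%. Immune cells, chosen by 5 UMIs of Ptprc, Tyrobp and Fcer1g and none of Epcam and Cdh1, served as a gauge of free RNA. Among them Dmp1 was found in 0.577% of 520 maxillary and 0.591% of 508 mandibular cells and Dkk1 in 1.54% and 4.33%. The immune cells were shallower, with medians of 3000 and 7670.5 UMIs. With every cell thinned to 2000 UMIs, Dmp1 was found in 81.5% and 67.0% of odontoblasts against 0.244% and 0% of immune cells (0 of 487, which allows up to 0.616%), and Dkk1 in 51.9% and 60.7% against 0.488% and 0.821%. Dmp1 and Dkk1, which the rule did not use, were thus far above the free-RNA gauge. Both were named for the class with earlier results of these data known, so their levels do not test the label. Dkk1 was also found in 49.9% and 44.5% of papilla-selected cells (defined below).

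A few cells went against the label. Dmp1 was at 0 in 1 maxillary and 14 mandibular odontoblasts, and 1 mandibular cell lacked Phex as well. Ibsp, the bone sialoprotein gene, reached 5 UMIs in 1 maxillary and 3 mandibular cells. At least 3 UMIs of endothelial markers were found in 5 mandibular cells and no maxillary one, of immune markers in 1 mandibular cell, of ameloblast keratins in 2 mandibular cells and of glial markers in none. The summed levels of other cell types' markers in odontoblasts were 6.70 and 21.6 CPM for 6 immune genes (Ptprc and Tyrobp at 0 in the maxillary library) and 6.70 and 35.1 CPM for 4 endothelial genes (Pecam1 and Cdh5 at 0 in the maxillary library). They were 83.4 and 123 CPM for 3 pericyte genes (mostly Abcc9), 3.72 and 2.54 CPM for 3 glial genes, 0 and 1.69 CPM for 3 cartilage genes and 14.2 and 34.7 CPM for 4 dental follicle genes. For 3 muscle genes they were 3.72 and 71.4 CPM (mostly Acta1), and for 5 red-cell genes 249 and 699 CPM (mostly Hba-a1). For the 10 ameloblast genes they were 369 and 506 CPM (mostly Ambn) and for the 8 dental papilla genes 156 and 155 CPM (mostly Egr3). For the 9 osteoblast genes they were 7887 and 9192 CPM, mostly Bglap in the mandibular library only, with Mepe at 0. Their part in the results below was not tested.

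3 sets of cells of the same libraries served for comparison. Papilla-selected cells (1346 maxillary and 746 mandibular) had at least 3 UMIs of Crym, Fgf3, Tac1 and Enpp6 together, under 5 of Dspp and none of Epcam, Cdh1 and Ibsp. Ibsp-selected cells (146 and 124) had at least 5 UMIs of Ibsp, 20 of the collagens, under 5 of Dspp and none of Epcam and Cdh1. Ameloblast-selected cells (313 and 827) had at least 5 UMIs of Ambn and Amelx and 2 of Epcam and Cdh1. Ibsp-selected cells had Bglap at only 59.3 and 279 CPM, and are not called osteoblasts. The 12 and 15 of them with at least 100 Ibsp UMIs, termed Ibsp-high, were set apart after the data had been seen. A gene is called higher or lower where it differed at least 2-fold the same way in both jaws. It also had to reach 50 CPM in the higher cells of each jaw. Because the higher cells alone decide this, counts and medians over tested genes do not describe whole lists. Paired values are given as maxillary, then mandibular, throughout.

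**Figure D1:**
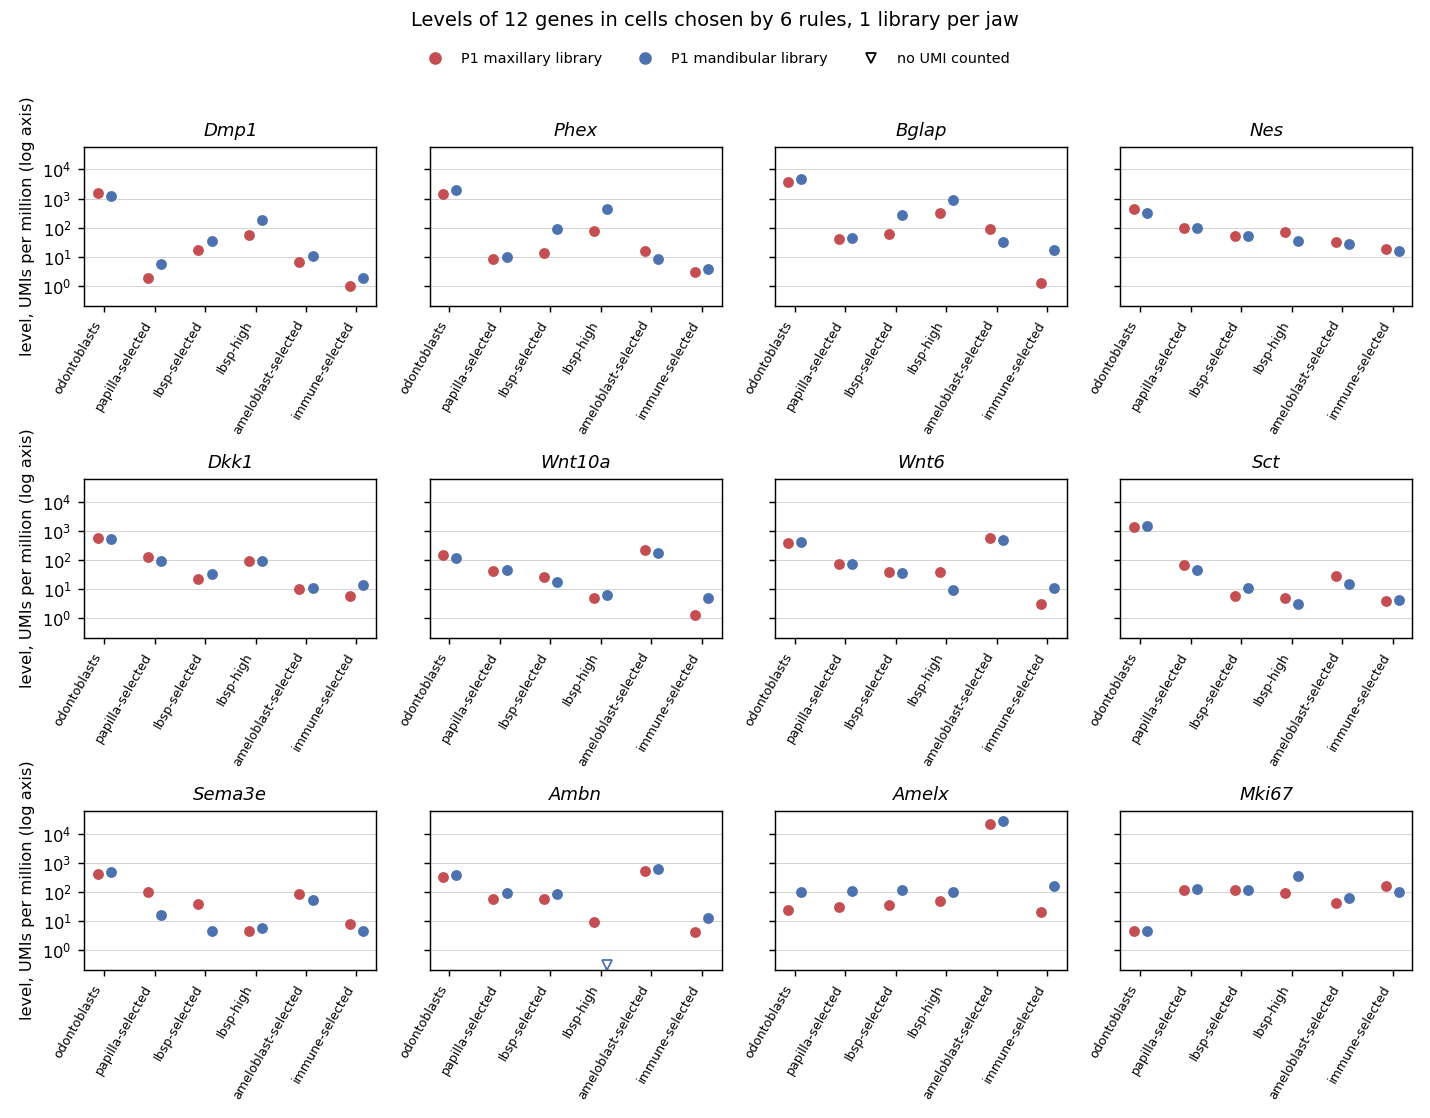
Levels of 12 genes in CPM (log axis) in cells chosen by 6 rules, with 1 point per P1 library and open triangles where no UMI was counted. Dmp1 lay at 1522 and 1227 CPM in odontoblasts and at most at 189 CPM in every other set, whereas Wnt10a in odontoblasts (145 and 118 CPM) lay below the ameloblast-selected cells (208 and 167 CPM).

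Papilla-selected cells are the nearest dental mesenchyme. Against them, odontoblasts had more of most genes tested for mineralization and collagen handling, while matrix genes and collagens went both ways. The tested genes of cell division were lower. The 50 CPM limit favours that direction, since genes such as Mki67 reached it only in papilla-selected cells. It favours the higher direction for genes such as Lox and Fam20c, which reached it only in odontoblasts. Of 4013 genes tested, 498 (12.4%) were higher and 551 (13.7%) lower. The median log2 ratio over all tested genes was -0.13 and -0.19, so a gene at a ratio of 0 lay slightly above the bulk. With shared barcodes left out of both libraries 1 maxillary odontoblast remained. The calls, resting on that cell in the maxillary library, were then 282 higher and 34 lower in odontoblasts.

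Dmp1 was at 1.87 and 5.82 CPM in papilla-selected cells, which gave log2 ratios of 9.67 (95% interval 9.22 to 10.16) and 7.72 (7.39 to 8.07). The mandibular ratio was 9.56 with a Dspp minimum of 3 UMIs and 9.83 against papilla-selected cells without Dspp. Phex, an endopeptidase needed for normal mineralization, was at 1415 and 1900 CPM in odontoblasts and 8.14 and 9.75 CPM in papilla-selected cells, with log2 ratios of 7.44 (7.22 to 7.67) and 7.61 (7.35 to 7.88). Both genes were among the 498 of 4013 (12.4%) called higher. Bglap was at 3593 and 4856 CPM against 41.3 and 42.7 CPM. Bglap2 (1431 and 1787 CPM against 21.4 and 21.7 CPM) and Bglap3 (90.9 and 120 CPM against 1.12 and 1.49 CPM) lie beside it on chromosome 3 and are near-identical, so the split of reads between the 3 genes is uncertain.

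Dspp, Dmp1, Ibsp, Mepe and Spp1 form 1 gene cluster on chromosome 5, from 104170712 to 104441050 (mm10), and they were not used alike. Ibsp stood at 17.9 and 65.9 CPM in odontoblasts, was found in 7 of 54 and 19 of 114 of them, and in each library a single cell held 70.8% and 48.7% of its UMIs. Spp1, the osteopontin gene, was at 80.4 and 84.1 CPM, above papilla-selected cells (8.6 and 23.6 CPM) but far under the Ibsp-high cells (13659 and 16477 CPM). Mepe had no UMI in odontoblasts of either library. Of the 4 genes of the cluster that the rule did not use, Dmp1 and Spp1 were thus called higher than in papilla-selected cells.

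Of 14 dentin and bone matrix genes tested, 7 were higher and 4 lower, with Dmp1, Spp1, Bglap and Bglap2 above and the rule's Dspp among the higher. Sparc, a collagen-binding glycoprotein, was at 7041 and 10141 CPM against 1320 and 1550 CPM. Decorin (Dcn), a proteoglycan of collagen fibrils, was at 3836 and 4364 CPM against 992 and 1477 CPM. The lower ones were Omd, Postn, Tnc and Vcan, the last of them, versican, at 270 and 188 CPM against 2098 and 1436 CPM.

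Collagens divided. Of 17 tested, 7 were higher and 7 lower, with the rule's Col1a1 and Col1a2 among the higher. Col24a1, a fibrillar collagen, was at 2541 and 2088 CPM against 397 and 356 CPM. Col11a2 was at 390 and 447 CPM against 5.47 and 10.3 CPM, with log2 ratios of 6.16 and 5.44, and Col27a1 at 757 and 756 CPM against 83.9 and 81.5 CPM. Col5a2 and Col11a1 completed the higher ones beside type I. Lower were Col3a1 (113 and 267 CPM against 677 and 1025 CPM), Col12a1 (66.3 and 53.7 CPM against 582 and 599 CPM), Col4a1, Col6a1, Col6a3, Col14a1 and Col23a1.

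Of the 32 listed genes that fold, modify and crosslink collagen, 25 were tested. Of these, 16 were higher, 0 lower and 9 not called, with a median log2 ratio of 1.47 and 1.46. Some, such as Lox and Adamts14, reached 50 CPM only in odontoblasts. The direction of these counts and the median are therefore partly set by the filter. P4ha1, a prolyl hydroxylase subunit, was at 614 and 569 CPM against 96.5 and 107 CPM. Lox, which crosslinks collagen, was at 213 and 309 CPM against 33.7 and 40.6 CPM. Serpinh1, the collagen chaperone, was at 2303 and 2196 CPM against 948 and 989 CPM, and Creb3l1, a factor of the secretory pathway, at 467 and 400 CPM against 74.8 and 76.7 CPM. Adamts14, a procollagen proteinase, was at 54.4 and 63 CPM against 2.76 and 3.69 CPM.

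For phosphate, calcium and mineralization, 8 of 14 genes were higher and 2 lower, with a median of 2.49 and 2.35. The list has 24 genes, and several of the higher ones, such as Fam20c and Fam20a, reached 50 CPM only in odontoblasts. The median therefore covers the tested genes and does not describe the list. The secretory kinase Fam20c was at 127 and 148 CPM against 8.46 and 8.49 CPM. Its partner Fam20a was at 464 and 473 CPM against 20.2 and 20 CPM, log2 ratios of 4.52 and 4.56. Enpp1, which makes pyrophosphate, was at 197 and 212 CPM against 20.3 and 23 CPM, and Ank, which moves it out of the cell, at 244 and 254 CPM against 33.2 and 38.8 CPM. Both genes of pyrophosphate supply, an inhibitor of mineralization, were thus higher. Alkaline phosphatase (Alpl), which removes it, was at 442 and 322 CPM against 263 and 414 CPM and was not called. Of calcium carriers, Slc8a3 was at 267 and 209 CPM against 28.1 in both jaws and Atp2b1 at 1075 and 1392 CPM against 138 and 154 CPM. Lower were the phosphate carrier Slc20a2 (16.4 and 25.8 CPM against 87.1 and 128 CPM) and the bicarbonate carrier Slc4a4 (17.1 and 17.3 CPM against 67.6 and 81.6 CPM).

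The study turned on Wnt10a, Dkk1 and Sost. Wnt10a, a Wnt ligand, was at 145 and 118 CPM in odontoblasts and 41.6 and 42.7 CPM in papilla-selected cells, with log2 ratios of 1.80 (1.57 to 2.03) and 1.46 (1.25 to 1.67). It was found in 92.6% and 78.9% of odontoblasts, and after thinning to 2000 UMIs in 16.7% and 17.9% against 6.41% and 5.90% of papilla-selected and 0% and 0.411% of immune cells (0 of 410 allows up to 0.732%). The level was higher in odontoblasts than in papilla-selected cells of either jaw. Wnt6, its neighbour on chromosome 1, was at 367 and 415 CPM against 70.7 and 70.8 CPM, with ratios of 2.38 and 2.55. Wnt5b was at 57.3 and 70.2 CPM against 24.8 and 20.1 CPM. These were 3 of the 4 Wnt ligands tested, of 19 on the list, and none was lower. Wnt10a and Wnt5b reached 50 CPM only in odontoblasts. The direction of this count is therefore partly set by the filter, and it does not describe the list. Ameloblast-selected cells had more of both Wnt10a (208 and 167 CPM) and Wnt6 (543 and 461 CPM).

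Dkk1 was at 127 and 89.3 CPM in papilla-selected cells, giving log2 ratios of 2.11 (1.99 to 2.23) and 2.51 (2.39 to 2.63). It was the only 1 of 6 Wnt antagonists called higher. Dkk2 (20.9 and 9.3 CPM against 107 and 150 CPM), Sfrp1 (31.3 and 25.4 CPM against 157 and 85.2 CPM) and Sostdc1 (2.98 and 3.38 CPM against 67.3 and 72.2 CPM) were lower. Notum, an enzyme that inactivates Wnt proteins, was at 225 and 178 CPM against 89.8 and 94.2 CPM, ratios of 1.32 and 0.91 that missed the 2-fold limit in the mandibular library. Wnt10a, Wnt6 and their pathway's inhibitor Dkk1 were thus all higher in the odontoblasts.

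Sost, which encodes the Wnt inhibitor sclerostin, was near its detection limit. A single maxillary odontoblast held 1 UMI, and 4 mandibular ones held 2, 7, 7 and 7 UMIs, a level of 0.745 and 9.72 CPM. All maxillary kept barcodes together held 16 Sost UMIs and all mandibular ones 69. Ibsp-selected cells held 0 of the 16 and 32 of the 69, against 1 and 23 in odontoblasts. The mandibular Ibsp-selected cells thus held more Sost than the odontoblasts, with fewer UMIs in all (1962038 against 2365495). Immune cells held none, which allows a Sost UMI in up to 0.577% and 0.591% of such cells at their shallower depth. This and the next limit concern detection and not expression. After thinning to 5000 UMIs, Sost was found in 0% of the 54 maxillary odontoblasts, which allows up to 5.56%, and in 0.893% of 112 mandibular ones. The 3 cells with 7 UMIs lay above single stray molecules, but no level for the class can be drawn from them.

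Of 12 Wnt receptors and R-spondin genes tested, Lrp4 (168 and 181 CPM against 49.8 and 57.6 CPM), which binds Wnt antagonists, and Ryk (197 and 201 CPM against 87.5 and 91.8 CPM), a Wnt co-receptor, were higher. Rspo2, a potentiator of Wnt signaling, was lower at 34.3 and 38.5 CPM against 421 and 261 CPM, as were Rspo4, Ror1 and Ror2. None of 5 Wnt target and TCF/LEF genes was higher. Axin2, a common readout of the pathway, was at 24.6 and 21.6 CPM against 16.2 and 19.2 CPM, under the 50 CPM limit. Ccnd1 (61.8 and 41.4 CPM against 243 and 242 CPM) and Tcf7l1 were lower.

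Of 18 BMP and TGF-beta genes, 5 ligands were higher and none lower. Bmp8a was at 176 and 241 CPM against 6.31 and 8.57 CPM, ratios of 4.80 and 4.81. Bmp2 was at 433 and 399 CPM against 175 and 97.5 CPM, and Tgfb1 at 327 and 280 CPM against 71.1 and 67.9 CPM. Bmp7 and Tgfb2 completed the 5. Of 12 FGF, hedgehog and Notch genes tested, 7 were lower and 1 higher. The Notch target Hes1 was at 90.1 and 87.9 CPM against 181 and 195 CPM and Fgf10 at 8.94 and 6.34 CPM against 106 and 91.4 CPM, while Fgf3, also lower, helped choose the papilla-selected cells. The FGF-responsive factor Etv5 was the higher one at 98.3 and 119 CPM against 26.5 and 34.9 CPM. Bmp8a and Etv5 reached 50 CPM only in odontoblasts and Fgf10 only in papilla-selected cells. The direction of the counts of both lists is therefore partly set by the filter.

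Of 19 transcription factors, 4 were higher and 4 lower, and 3 of the higher ones are described here. Sp7, the osterix gene, was at 235 and 170 CPM against 69.1 and 62.3 CPM, Sp6 at 369 and 376 CPM against 105 and 120 CPM, and Mef2c at 551 and 529 CPM against 161 and 149 CPM. Runx2, the master factor of bone, was at 122 and 120 CPM against 162 and 182 CPM and was not called, and neither was Msx1. Dlx4, Dlx5, Sox9 and Sox11 were lower.

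Of the genes of cell division, only 11 of 19 in G2/M and 3 of 18 in S phase were tested. All of these were lower, with a median of -3.54 and -4.95 for G2/M. A gene was tested only where its higher cells reached 50 CPM, which Mki67 did only in papilla-selected cells. The direction of these counts is therefore partly set by the filter, and they do not describe the whole lists. Mki67 was at 4.47 and 4.65 CPM against 118 and 123 CPM. At least 3 UMIs of Mki67 and Top2a were found in 1 maxillary and 2 mandibular odontoblasts. Of 3 cell cycle inhibitors, Cdkn1a, the p21 gene, was higher at 672 and 619 CPM against 78.7 and 93.6 CPM, ratios of 3.10 and 2.73.

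Among genes of the process and cytoskeleton, 3 of 14 were higher and 4 lower. Nestin (Nes), an intermediate filament gene of odontoblasts, was at 424 and 328 CPM against 99.4 and 100 CPM. Tubb3, a tubulin gene best known from neurons, was at 233 and 163 CPM against 63.4 and 75.9 CPM, and Map1b, a microtubule-binding protein, was the third. Actb, Actg1, Map2 and Dpysl3 were lower. Of 6 nerve and vessel signals, Sema3e (416 and 482 CPM against 97.9 and 16 CPM) and Sema3d were higher and Sema3a, Slit2 and Angpt1 lower. Of 7 proteinases and inhibitors, 4 were higher (Mmp16, Adamts5, Adamts9 and Timp1) and none lower. Timp1, an inhibitor of metalloproteinases, was at 422 and 485 CPM against 24.9 and 37.5 CPM, and so passed the filter only through odontoblasts. Of 4 ion channel and sensing genes none was higher and Cacna1c was lower.

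**Figure D2:**
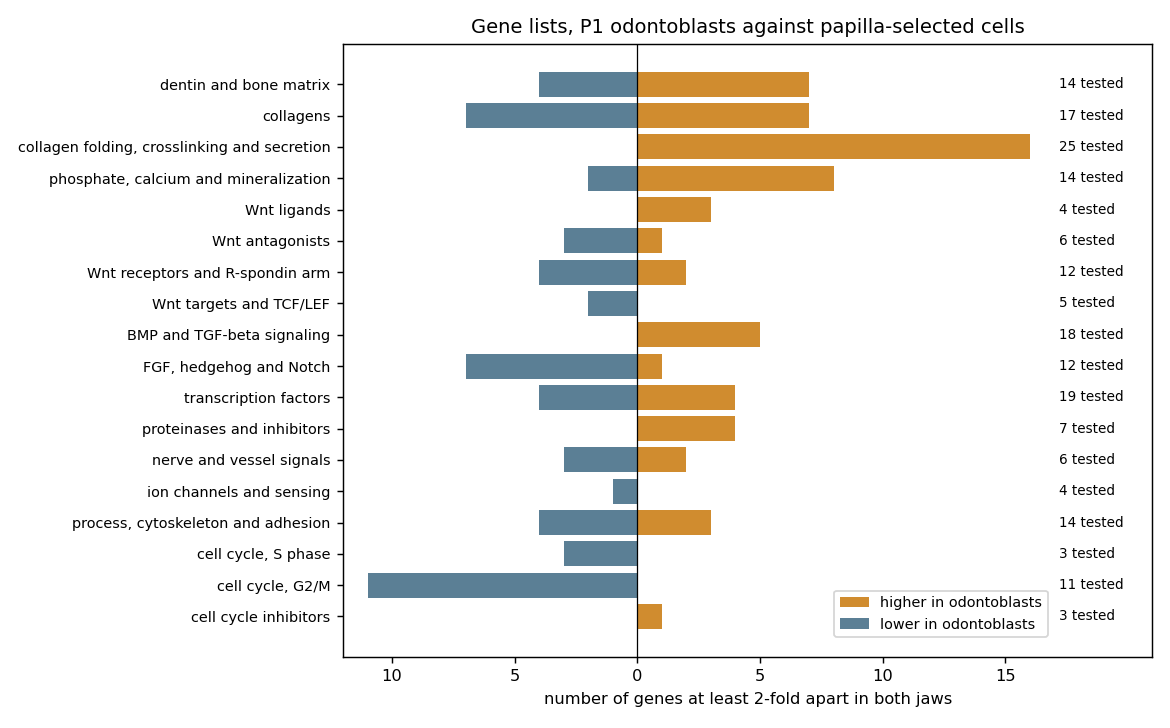
Number of genes of each of 18 lists that were at least 2-fold higher (right) or lower (left) in odontoblasts than in papilla-selected cells in both jaws. The list of collagen folding, crosslinking and secretion has 16 higher and 0 lower genes and the G2/M list 0 higher and 11 lower.

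Several of the genes with the largest ratios over papilla-selected cells stood outside the lists. Gm30191, a gene without a given name, was at 90.1 and 112 CPM against 0.14 and 0.314 CPM, with log2 ratios of 9.33 and 8.48. Sh2d4a, an SH2 domain protein, was at 89.4 and 175 CPM against 0.561 and 0.865 CPM. Ptprr, a receptor tyrosine phosphatase, was at 118 and 162 CPM against 1.5 and 2.2 CPM, Ccdc194 at 153 and 146 CPM against 1.54 and 1.42 CPM, and Chst13, a chondroitin sulfotransferase, at 102 and 97.7 CPM against 1.73 and 2.04 CPM. The acid phosphatase Acpp was at 87.1 and 165 CPM against 1.5 and 2.04 CPM, but ameloblast-selected cells had more, 368 and 358 CPM. Likewise 9930111J21Rik2 (52.1 and 67.6 CPM against 0.795 and 0.865 CPM) was at 46.1 and 50.2 CPM in immune cells. With Dmp1, Phex and the 3 Bglap genes these are the 12 genes with the largest ratios.

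The 12 with the largest negative ratios held Prc1, Mki67, Nusap1 and Cenpf, which act in mitosis, and Hist1h1b and Pclaf, which are made during DNA replication. Others were Pcp4, a calmodulin-binding peptide (3.72 and 3.38 CPM against 230 and 248 CPM), Galnt13 (27.6 and 23.3 CPM against 585 and 383 CPM), Gabrg3 (12.7 and 0.845 CPM against 220 and 129 CPM), Sostdc1, and Tac1, which helped choose the papilla-selected cells. The last was the globin gene Hbb-bt (4.47 and 19 CPM against 149 and 303 CPM), which was also present in immune cells at 930 and 395 CPM.

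Against Ibsp-selected cells, 530 of 4000 genes (13.2%) were higher and 613 (15.3%) lower. With shared barcodes left out of both libraries, and so with 1 maxillary odontoblast, 223 were higher and 20 lower. Among the 8 genes with the largest ratios was Sct, the secretin gene, at 1300 and 1458 CPM against 5.52 and 10.7 CPM, with log2 ratios of 7.88 and 7.09. Papilla-selected cells had Sct at 65.1 and 43.9 CPM. The other 7 were Gm29040 (197 and 208 CPM against 0 and 1.02 CPM), Mypn, a muscle sarcomere protein (57.3 and 61.3 CPM against 0.46 and 0.51 CPM), Gm32352, Gm29521, Sh2d4a, Acpp and Gm30191. The 8 with the largest negative ratios included Igfbp5, an IGF-binding protein (14.2 and 46.1 CPM against 3418 and 2450 CPM), Moxd1 (0 and 0.423 CPM against 126 and 85.6 CPM), Gpc5 (0 and 2.11 CPM against 159 and 154 CPM) and Ndnf (0.745 and 0.845 CPM against 83.2 and 66.3 CPM), beside Sostdc1, Prc1, Pcp4 and the chosen Ibsp. Of the lists, collagen folding had 17 of 26 genes higher and 1 lower, mineralization 9 of 17 higher and 3 lower, and Wnt antagonists 2 of 9 higher (Dkk1 and Notum) and 6 lower. Dkk1 was at 21.6 and 31.6 CPM in Ibsp-selected cells.

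Against the Ibsp-high cells, of 3521 genes, 435 (12.4%) were higher and 250 (7.1%) lower in odontoblasts, over 12 and 15 cells. Dmp1 was at 55.8 and 189 CPM and Phex at 79.1 and 426 CPM in Ibsp-high cells, both under the odontoblasts (1522 and 1227, and 1415 and 1900 CPM). Ifitm5, a gene known from osteoblasts, was at 979 and 703 CPM in odontoblasts and 1387 and 966 CPM in Ibsp-high cells. Runx2 was much lower in odontoblasts, 122 and 120 CPM, than in the Ibsp-selected cells, 1324 and 1512 CPM. Mmp13, a collagenase, had no UMI in odontoblasts and 363 and 1073 CPM in Ibsp-high cells. Of the 26 collagen folding genes tested, 5 were higher against these cells and 2 lower. Rcan2 (444 and 423 CPM against 9.31 and 0 CPM), the microtubule gene Mapt (212 and 171 CPM) and the neuronal gene Nkain2 (562 and 740 CPM against 14 and 0 CPM) were among the higher genes. Genes outside the lists that are named against Ibsp-high and ameloblast-selected cells were chosen after their values were seen.

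Against ameloblast-selected cells, 607 of 3981 genes (15.2%) were higher and 512 (12.9%) lower. Galanin (Gal), a neuropeptide, was at 52.9 and 120 CPM against 0.199 and 0.478 CPM. Lower were Calb1, a calcium-binding protein (2.98 and 7.19 CPM against 5829 and 5174 CPM), Enam, an enamel matrix gene (0 and 4.23 CPM against 970 and 1721 CPM), and Krt14, a keratin (5.96 and 8.03 CPM against 2042 and 1887 CPM). The rule, which admits no cell with Epcam or Cdh1, removed cells rich in Krt14 and Amelx, so low values of epithelial genes follow in part from the choice of cells.

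Ambn, the gene of the enamel protein ameloblastin, was nevertheless present. It was at 329 and 378 CPM in odontoblasts, 533 and 587 CPM in ameloblast-selected and 58.2 and 94.6 CPM in papilla-selected cells, and at 4.19 and 12.8 CPM in immune cells. Amelx, the gene of the main enamel protein, was at 24.6 and 96 CPM in odontoblasts, 22161 and 28259 CPM in ameloblast-selected, 29.3 and 107 CPM in papilla-selected and 20 and 160 CPM in immune cells. Amelx in odontoblasts was therefore at the level of the free-RNA gauge, and Ambn was far above it in both libraries. After thinning to 2000 UMIs, Ambn was found in 51.9% and 57.1% of odontoblasts and in 0.244% and 1.44% of immune cells, and Amelx in 3.70% and 14.3% against 2.68% and 31.4%. Of the other enamel genes on the list, Amtn and Klk4 were at 0 in both libraries.

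Odontoblasts differed among themselves over a wide range of Dspp. Ranked by Dspp per UMI, the 18 lowest maxillary cells lay at 150 to 452 CPM and the 18 highest at 1543 to 14292 CPM. The 38 lowest mandibular cells lay at 161 to 1112 CPM and the 38 highest at 3622 to 17621 CPM. The middle cells, 18 and 38, lay between by construction, and the groups are ranges of Dspp and not types. Median depth differed little, 26367 against 23976.5 UMIs in the maxillary and 21771.5 against 18652 UMIs in the mandibular library for low against high cells.

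Between the low and high cells, 71 of 3395 genes (2.09%) were higher and 64 (1.89%) lower with high Dspp. The 71 include the rule's Col1a2 and Dspp itself, whose call was fixed by the ranking. Of the lists, dentin and bone matrix had 2 of 12 genes higher, the rule's Dspp and Bglap, and 2 lower, mineralization had 2 of 13 higher and 3 lower, and proteinases 1 of 7, collagens 1 of 14 (the rule's Col1a2) and collagen folding 1 of 25 higher and none lower. The list of the process, cytoskeleton and adhesion had 0 of 12 genes higher and 2 lower, Tubb3 and Dpysl3. Adamts9, a versican-cleaving proteinase, went from 78.3 to 567 CPM in the maxillary and from 172 to 544 CPM in the mandibular library. Lox went from 120 to 354 and from 155 to 472 CPM, and Fbln7, a matrix adhesion protein, from 90.7 to 398 and from 137 to 521 CPM. The citrate carrier Slc13a5 (10.3 to 55.4 and 32.9 to 160 CPM), the calcium pump Atp2b1 (627 to 1630 and 919 to 2020 CPM), the endopeptidase Mme (24.7 to 168 and 81.8 to 324 CPM) and Tcea3, an elongation factor (14.4 to 113 and 36.6 to 244 CPM), moved the same way. Bglap, Bmp8a, Fgfr1, Gal and the rule's Col1a2 were also higher, and so was the red-cell gene Hba-a1.

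Among the genes lower with high Dspp, Alpl went from 608 to 166 and from 432 to 194 CPM. Smpd3 and Panx3 of the mineralization list, Omd and Lum of the matrix list and Ifitm5 were lower too. Mxra8, a cell adhesion protein, went from 287 to 21.3 and from 185 to 26.0 CPM. The chaperone gene Hspa5 went from 839 to 407 and from 702 to 252 CPM, Calr from 866 to 405 and from 636 to 251 CPM and Pdia6 from 598 to 273 and from 409 to 160 CPM. Ccnd1 (111 to 29.8 and 61.0 to 29.9 CPM) and Cdk4 (186 to 63.9 and 128 to 63.7 CPM) were lower as well. Ifitm5, Mxra8, Hspa5, Calr, Pdia6, Cdk4 and the higher genes outside the lists were chosen after their values were seen. Of the 4 Wnt target and TCF/LEF genes tested, Ccnd1 and Tcf7 were lower, the latter, a transcription factor of the Wnt pathway, going from 105 to 36.2 and from 73.2 to 24.7 CPM. None of the 14 genes tested of the transcription factor list, 4 Wnt ligands or 3 Wnt antagonists was called in either direction. Outside that list the transcription factor genes Irx5 (225 to 633 and 301 to 678 CPM) and Etv1 (30.9 to 66.1 and 35.4 to 83.2 CPM) were higher, both named after their values were seen.

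**Figure D3:**
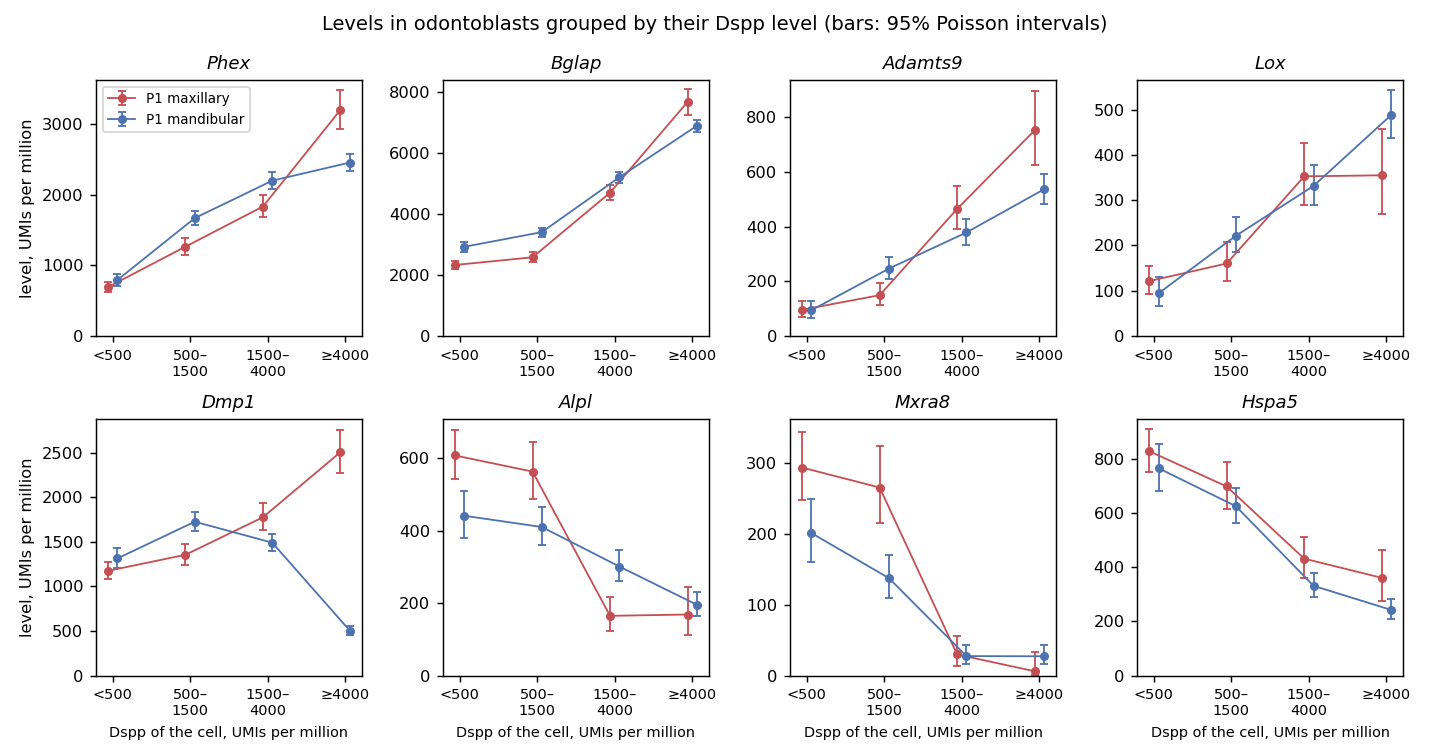
Levels of 8 genes in CPM in odontoblasts grouped by the Dspp level of the cell into 4 bands with the same limits in both jaws, points with 95% Poisson intervals, 1 line per P1 library. Phex and Bglap rise from band to band in both libraries, Alpl and Hspa5 are lower in the highest band than in the lowest. Dmp1 ends lowest in the mandibular library, and its highest maxillary point, 2504 CPM, rests on 1 of 6 cells, without which it is 718 CPM.

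Phex went from 651 to 2318 CPM between the low and high maxillary cells and from 1312 to 2497 CPM between the mandibular ones. Its log2 ratios were 1.83 and 0.93, and it was not called, since the second missed the 2-fold limit. In 4 bands with the same limits in both jaws, set after the data had been seen, Phex went from 692 CPM in cells under 500 CPM of Dspp to 3203 CPM in cells at or above 4000 CPM in the maxillary library, and from 791 to 2456 CPM in the mandibular one. Dkk1 showed no steady trend, at 567, 489, 604 and 518 CPM and at 471, 579, 572 and 407 CPM from the lowest band to the highest. Wnt10a stood at 174, 168, 112 and 66 CPM and at 176, 119, 123 and 77 CPM. From the lowest band to the highest it fell past the 2-fold limit in both libraries, though it was not called between the low and high cells. Wnt6 was at 332 and 377 CPM in the lowest band and 433 and 471 CPM in the highest.

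Dmp1 did not follow Dspp in the mandibular library, and in the maxillary one its level in the highest band rests on a single cell. Between the low and high maxillary cells it went from 1057 to 2033 CPM, or to 1475 CPM without the cell with the most Dmp1, with medians per cell of 728 and 1204 CPM. From the lowest to the highest band it stood at 1173, 1353, 1774 and 2504 CPM in maxillary and at 1312, 1724, 1489 and 504 CPM in mandibular odontoblasts. The maxillary top band is 6 cells, with a lowest value of 209, a median of 743 and a highest of 7121 CPM, and 1 cell holds 330 of its 416 Dmp1 UMIs. Without that cell the band stood at 718 CPM, below the lowest band. The maxillary medians per cell, 842, 908, 1486 and 743 CPM, were also lowest in the top band. In the 35 mandibular cells of that band the median was 147 and the highest value 2683 CPM, 11 cells had no Dmp1 UMI, and 4 exceeded 1000 CPM. In the lower 3 mandibular bands Dmp1 was at 0 in 0, 1 and 2 cells. Cells without Dmp1 were thus mostly mandibular cells with the highest Dspp, the band in which Phex and Bglap were highest.

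**Figure D4:**
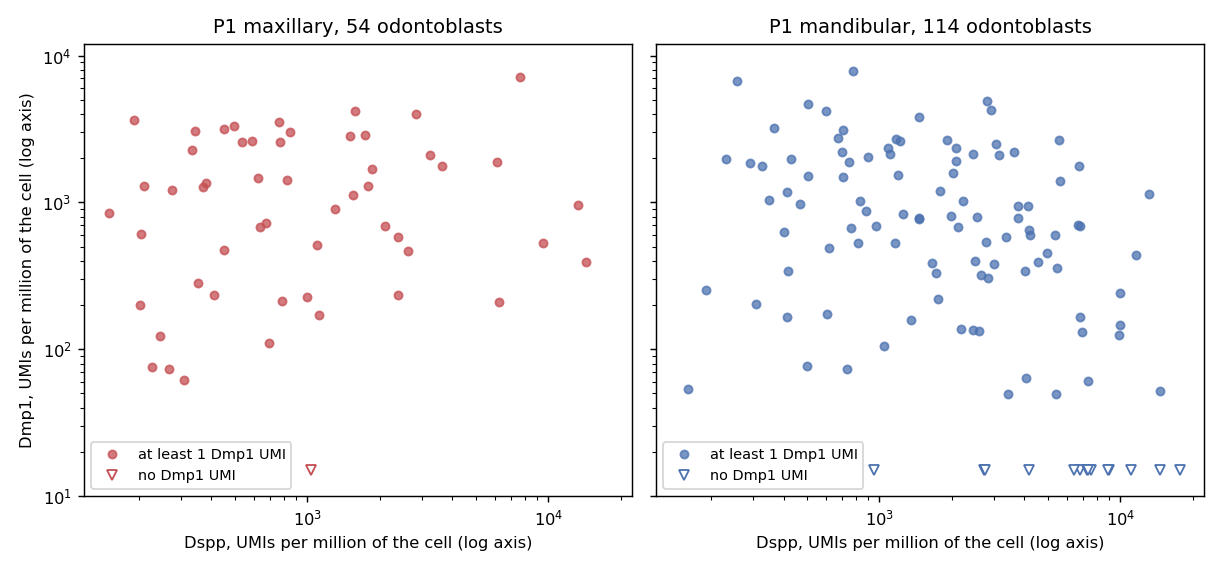
Dmp1 against Dspp, both in CPM of the cell on log axes, for each of the 54 maxillary and 114 mandibular odontoblasts, with open triangles for cells without a Dmp1 UMI. Of the 14 mandibular cells without Dmp1, 11 lie at or above 4000 CPM of Dspp.

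Mmp20, the gene of the enamelysin proteinase, was at 20.1 and 293 CPM in odontoblasts, 0.14 and 0.629 CPM in papilla-selected and 0 and 0.198 CPM in immune cells, and found in 16.7% and 52.6% of odontoblasts. Ameloblast-selected cells had 540 and 564 CPM. It stood at 4.12 CPM in the low and 46.9 CPM in the high maxillary cells and at 22.0 and 812 CPM in the mandibular ones, and was not tested between them, since it stayed under 50 CPM in both maxillary groups. In the 4 bands it stood at 5.9, 5.5, 9.9 and 114 CPM and at 19.8, 26.5, 85.2 and 874 CPM. Its log2 ratio of maxillary to mandibular odontoblasts, -3.86, stands beside a larger share of cells of the highest band in the mandibular library, 35 of 114 against 6 of 54. Its part in the jaw difference was not tested.

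Between the jaws few genes differed. Of 3545 tested, 8 (0.226%) were at least 2-fold higher in maxillary and 37 (1.04%) in mandibular odontoblasts. With shared barcodes kept in both libraries these counts were 5 and 35. With a single library per jaw, jaw and library cannot be told apart. Nell1, an osteogenic secreted protein, was at 67.8 and 19.4 CPM, a log2 ratio of 1.80, and the papilla-selected cells had the same ratio, 1.81. Grik1 (147 and 55.8 CPM) had 1.39 in odontoblasts and 1.09 in papilla-selected cells. Ifitm1 (51.4 and 18.6 CPM), Bmper, a BMP-binding protein (72.2 and 27.1 CPM), and Mxra8 (191 and 85 CPM) had ratios of 1.47, 1.42 and 1.17 in odontoblasts and of 0.17, 0.20 and -0.09 in papilla-selected cells. Mxra8 was also lower with high Dspp, and its part in this ratio was not tested.

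The mandibular side was led by H19, an imprinted RNA (2.23 and 85 CPM), Nfib, a transcription factor (1.49 and 52.8 CPM), S100a9 (0 and 76.1 CPM), S100a8 (0 and 55.8 CPM) and Acta1, skeletal actin (3.72 and 65.5 CPM). S100a8 and S100a9 are neutrophil genes and stood at 18494 and 22990 CPM in mandibular immune cells, and at 0.561 and 52.9 CPM (S100a9) in papilla-selected cells. H19 and Nfib had log2 ratios of -5.25 and -5.15 in odontoblasts and -1.18 and -0.65 in papilla-selected cells. Of the genes on the lists, Col3a1, Ibsp, Mmp20 and Slc13a5 were called between the jaws, all higher in the mandibular library, and Dkk1 and the Wnt ligands were not. Ibsp stood at 17.9 and 65.9 CPM, and at 5.30 and 34.2 CPM without the cell with the most Ibsp in each library. The mandibular value is then under the 50 CPM that a call needs, so the call of Ibsp rests on a single cell. Slc13a5 was also called higher with high Dspp, and the part of Dspp in its call was not tested.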

How the data were processed

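The authors deposited, for each library, raw UMI counts per gene and barcode, made with Cell Ranger 7.0.1 on mm10 (file headers), with 32285 genes and no normalization. Barcodes are all those called as cells. The study removed doublets with scDblFinder in its own analysis, and the labels do not say that the deposited counts are without them. This Cell Ranger version counts intronic reads unless told otherwise.

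Barcodes were kept from 1000 UMIs and under 10% mitochondrial UMIs. Levels are summed UMIs of a class per 1000000 of its UMIs, with exact 95% Poisson intervals, and log2 ratios have exact binomial (Clopper-Pearson) intervals. Where a class had no UMI of a gene, the ratio was computed with 3 counts in its place. Calls need 2-fold in both jaws and 50 CPM in the higher cells of each. Shares of cells were recomputed after thinning to 2000 or 5000 UMIs, and doublets were left in, with Scrublet (scanpy 1.11.5) as an alternative that removed 2800 maxillary and 3011 mandibular barcodes. Calculations used numpy 2.4.6, scipy 1.17.1 and pandas 2.3.3. The calls were also run on simulated summed counts with counting error only. Changes of 3, 4 and 8-fold were called in 50 of 50 genes each, 1.5-fold in 0 of 50, and 0 of 3319 unchanged genes were called. These counts held no variation between cells, so they cannot show how calls that rest on few cells behave.

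Named genes are those of 18 lists, the 12 with the largest ratios in each direction against papilla-selected and the 8 against Ibsp-selected cells, and 5 in each direction between jaws, without the rule's genes, mitochondrial genes and Y-linked or X-inactivation genes. The odontoblasts, lists, markers and comparison sets were chosen with earlier results of these data known. E15 libraries were used only for counts. The values of 1 transcription factor on the lists are not reported here.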

Additional observations from a re-analysis of the deposited data

Results flagged for a closer look

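Of 3395 genes tested along Dspp, 3 had ratios of opposite sign in the libraries that were at least 2-fold in both, Il1rapl1, Kirrel3 and Lrrtm4. Dmp1, which is under 2-fold in the maxillary library and was added after its values were seen, had a log2 ratio of high-Dspp to low-Dspp odontoblasts of 0.94 in maxillary and -1.46 in mandibular cells. Without the maxillary cell with the most Dmp1 the first was 0.48, and it was -0.71 where that cell was left out and 4 bands of Dspp were used. The other 3 genes encode cell adhesion proteins known from neurons. Il1rapl1 had ratios of 1.63 (18.6 to 57.5 CPM) and -3.67 (83.0 to 6.50 CPM), Kirrel3 of 1.27 (61.8 to 149 CPM) and -1.75 (127 to 37.7 CPM), and Lrrtm4 of 1.10 (30.9 to 66.1 CPM) and -2.54 (113 to 19.5 CPM). The difference between the libraries was not tested, since each jaw has 1 library. The high-Dspp cells are also not alike, starting at 1543 CPM of Dspp in the maxillary and 3622 CPM in the mandibular library.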

How the results depend on the processing

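No gene called higher or lower against papilla-selected or Ibsp-selected cells reversed under the alternatives run. Along Dspp in the maxillary library, the ratio of Dkk1 went from 0.075 to -0.13 in 4 bands. That of Dmp1 went from 0.94 to 1.09 in 4 bands, to 0.48 without the cell with the most Dmp1 and to -0.71 with both changes, all chosen after seeing the data. The number of genes higher or lower stayed within 1.5 times of that reported in 21 cases and moved in 7 against papilla-selected cells, and in 22 and 8 against Ibsp-selected cells. No paired analysis was possible because each stage and jaw has 1 library, so that leaving out a replicate was also not possible. Causes of the changes below were not tested except where the setting's construction gives them.

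With shared barcodes dropped from both libraries 1 maxillary odontoblast remained, calls fell to 282 higher and 34 lower against papilla-selected and to 223 and 20 against Ibsp-selected cells, and the maxillary log2 ratios to papilla-selected cells were 4.71 for Dkk1, 7.45 for Dmp1 and 5.03 for Wnt10a. Removing top Scrublet scores left 34 maxillary odontoblasts and put the mandibular Dkk1 ratio at 2.64. It was also 2.64 without the 20 most abundant genes in the totals, and 2.71 with median-ratio scaling, which put the maxillary one at 2.27. The mandibular Dmp1 ratio was 9.56 with a Dspp minimum of 3 UMIs and 9.83 against papilla-selected cells without Dspp.

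With no minimum CPM, 2042 genes were higher and 2568 lower than in papilla-selected and 1070 and 2740 than in Ibsp-selected cells. From 20 CPM, 1124 and 1230 were lower. A fold of 4 left 177 higher and 205 lower, and 181 and 269. Against Ibsp-high cells 250 were lower. Keeping shared barcodes in both libraries left 5 genes higher in the maxillary molar. The mandibular log2 ratio of Phex, high to low Dspp, was 0.93 as reported, under 2-fold, and 1.63 in 4 bands set after seeing the data.

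Shares of cells with a UMI were also taken at fixed depths. Thinned to 2000 and 5000 UMIs, Dkk1 was found in 51.9% and 88.9% of maxillary and 60.7% and 82.1% of mandibular odontoblasts, and Wnt10a in 16.7% and 51.9%, and 17.9% and 38.4%. Dmp1 was found in 81.5% of maxillary cells at 2000 UMIs and in 67.0% and 73.2% of mandibular ones. Sost was found in 0% of maxillary cells at both depths and in 1.79% and 0.893% of mandibular cells, against 3.51% unthinned.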
